A study of Mus musculus with 10 samples.

Results

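The genes described here make, remodel and break down phosphatidylcholine and phosphatidylserine. They are Pemt, Chka, Chkb, Pcyt1a, Chpt1, Ptdss1, Ptdss2, Lpcat3, Gpcpd1 and Pnpla6, taken by symbol from the deposited expression table. Each symbol matched 1 row, giving 10 of the 47729 genes in the table, and all 10 were among the 12395 genes expressed highly enough to be tested. The samples were livers of female mice, 5 labelled as Etnppl knockout in the whole body (KO) and 5 as wild type (WT). Feeding was the same in both genotypes, 8 weeks of standard chow followed by 10 weeks of a diet in which fat supplied 45% of the calories, so every sample is from a mouse on that diet. Samples are numbered within a genotype, and the labels do not state that the numbers are different animals. The p-values therefore rest on the spread among samples, part of which may be technical. The labels name no strain and no deleted exons.

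Phosphatidylcholine is the main phospholipid of cell membranes and of the lipoproteins that the liver secretes. Hepatocytes make it from choline through CDP-choline, and also by methylating phosphatidylethanolamine, a route that is prominent in liver. Phosphatidylserine is made by exchanging the head group of either phospholipid for serine. Etnppl encodes the phospho-lyase that breaks down phosphoethanolamine, a precursor of phosphatidylethanolamine. The comparison asks whether transcripts of the neighbouring choline and serine phospholipid genes differed when that enzyme gene was disrupted.

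Poly(A)-selected RNA was sequenced as paired ends, and the authors deposited FPKM, which are fragment numbers scaled by transcript length and library depth. Because of the scaling by length, levels of different genes can be set side by side. Estimated depth was 21100000 to 28400000 fragments in KO libraries and 22000000 to 25100000 in WT libraries, from the steps between low values. Etnppl was at 7.36 to 10.19 FPKM in KO livers and at 27.57 to 56.55 FPKM in WT livers (log2 fold change -1.99, limma adjusted p = 0.000387), so every library matched its label. Hepatocyte markers were abundant in every library, and the sum of the 9 matched markers was 68624 to 80690 FPKM in KO and 60958 to 73663 FPKM in WT. Of these 9 markers 8 had a higher mean in KO, none past the adjusted threshold. Tat, Cps1 and Ahsg were the 3 at an unadjusted limma p under 0.05, where the share over the 12395 genes was 2.69% higher. Tat averaged 945 FPKM in KO and 459 FPKM in WT, and Cps1 863 and 603 FPKM, both without overlap. Alb, Ttr, Apoa1, Serpina1a and Fgb were higher at unadjusted limma p of 0.0716 to 0.771, and Hpx was lower. A lower mean in KO was seen for 9 of 10 macrophage markers (6 with median-of-ratios scaling). It was also seen for 8 of 9 stellate cell markers (7 with that scaling). The background share for a lower mean was 65.1% with FPKM as deposited. The macrophage markers summed to 295 to 421 FPKM in KO and 328 to 488 FPKM in WT, and the stellate cell markers to 156 to 179 FPKM in KO and 164 to 223 FPKM in WT. Markers of sinusoidal endothelium had 4 higher and 4 lower means in KO (6 and 2 with median-of-ratios scaling), of cholangiocytes 1 and 3 (2 and 2 with that scaling), of lymphocytes 1 and 6, of neutrophils 1 and 2, and the 1 adipose marker tested was lower, none past the adjusted threshold. The adipocyte hormone gene Lep was at 0 in every library. In whole liver, fewer cells of a type and less RNA per cell cannot be told apart. The part of these marker differences in the values below was not tested.

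None of the 10 genes passed the adjusted threshold of 0.05 in limma, where 0.0645% of all genes tested did (8 of 12395, of which 0.0323% were higher and 0.0323% lower in KO). At an unadjusted p under 0.05 there were 2, Chkb and Lpcat3, both with lower means in KO. The share among all genes tested was 11.8% at the same threshold, 9.07% lower and 2.69% higher in KO, so a count of 2 in 10 is not far from the background. For none of the 10 did the KO and WT ranges lie apart, against 2.79% of all genes tested (0.581% higher and 2.21% lower in KO). The smallest adjusted p among the 10 was 0.246, for Chkb. Of the 10, 9 had a lower mean log2 value in KO, with a median log2 fold change of -0.07, beside 65.1% of all genes tested, whose median was -0.05. With the libraries rescaled by the median of ratios, 5 of the 10 were lower and 5 higher in KO, so the direction of the smallest differences rests on the scaling.

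**Figure D1:**
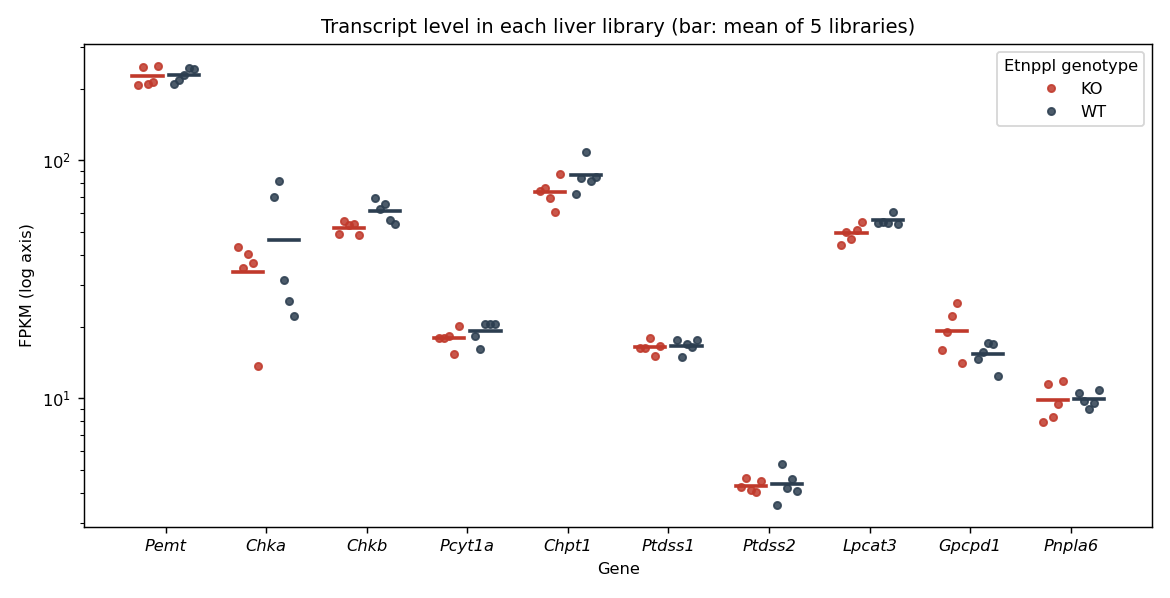
FPKM on a log axis for the 10 genes, 1 point per liver library, KO left of WT, with a bar at each mean of 5 libraries. Pemt lies highest and Ptdss2 lowest in both genotypes, and Chka has the widest spread, 13.61 to 81.48 FPKM over the 10 libraries.

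The 10 transcripts covered a wide range of levels. In KO livers the order of mean FPKM was Pemt at 225 ± 21.1, Chpt1 at 73.7 ± 10.00, Chkb at 52.0 ± 3.24, Lpcat3 at 49.3 ± 4.19, Chka at 33.9 ± 11.7, Gpcpd1 at 19.2 ± 4.48, Pcyt1a at 17.9 ± 1.69, Ptdss1 at 16.4 ± 0.971, Pnpla6 at 9.79 ± 1.78 and Ptdss2 at 4.29 ± 0.241 (SD, n = 5). In WT livers the order differed only in Gpcpd1, which lay below Pcyt1a and Ptdss1. In WT livers Pemt was at 229 ± 14.9 FPKM and Ptdss2 at 4.34 ± 0.643 FPKM (SD, n = 5). Pemt lay above 97.0% of all genes tested and Ptdss2 above 39.2%. The ranges of Pemt and Chpt1, of Chpt1 and Chkb, and of Pnpla6 and Ptdss2 did not overlap between neighbours in either genotype. Chkb overlapped Lpcat3 in both genotypes, as did Pcyt1a and Ptdss1, so their order is within the library spread.

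Pemt, which methylates phosphatidylethanolamine to phosphatidylcholine in the hepatocyte, was the most abundant of the 10. It had 207.28, 247.46, 209.76, 212.77 and 249.27 FPKM in KO livers 1 to 5, against 210.01, 218.43, 229.16, 243.84 and 242.95 FPKM in WT livers 1 to 5. The ranges lay across each other, with KO livers 2 and 5 above and KO livers 1 and 3 below every WT liver. The log2 fold change was -0.03 (95% CI -0.19 to 0.14, limma adjusted p = 0.926), an interval of 0.879 to 1.10 times the WT level. The gene lies on the minus strand of chromosome 11 at 59970614 to 60046489 (GENCODE M21, GRCm38).

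The promoter windows of Pemt and Chka are shown because the levels of these genes ran opposite to each other among livers of a genotype, as described further on, and their CpG content differs. Each is the 250 bases before a RefSeq start in build GRCm38.p6, 5′ to 3′ on the gene's strand, chr11:60040189-60040438 minus for Pemt and chr19:3851523-3851772 plus for Chka. Capitals mark matches on either strand to the GC box (GGGCGG), to the CCAAT box, or to the TATA box letters TATAAA.
Pemt: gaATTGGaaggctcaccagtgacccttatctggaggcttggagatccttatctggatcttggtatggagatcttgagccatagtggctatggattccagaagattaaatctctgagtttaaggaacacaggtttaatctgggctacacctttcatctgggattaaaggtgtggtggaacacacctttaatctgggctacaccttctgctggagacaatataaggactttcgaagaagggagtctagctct
Chka: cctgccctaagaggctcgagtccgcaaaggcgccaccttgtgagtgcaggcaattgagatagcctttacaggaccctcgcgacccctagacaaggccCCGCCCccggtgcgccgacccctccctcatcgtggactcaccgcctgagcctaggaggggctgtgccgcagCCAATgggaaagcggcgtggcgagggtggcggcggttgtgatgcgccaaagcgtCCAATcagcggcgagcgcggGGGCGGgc
Pemt had 2 windows, both inside the annotated gene, and the one with fewer CpG is shown. The Pemt window shown had 1 CpG and 44.8% GC, and 7.87% of all 32851 windows had fewer CpG. Its other window had 2 CpG, 52.8% GC and no CCAAT match, and 18.8% of windows had fewer CpG. The Chka window had 24 CpG and 68.0% GC, and 88.0% of windows had fewer. Of 10 genes, 8 had windows, 13 in all, with a median of 15 CpG against 6 over all windows (Ptdss1 and Gpcpd1 are named only). GGGCGG stood in 7 of the 13 windows and in 32.7% of all, CCAAT in 6 and in 33.8%, and TATAAA in 1, that of Chkb, and in 12.4%. Some windows of Pcyt1a and of Pnpla6 overlap each other, so some bases are counted repeatedly. All windows together cover 27025 genes, including genes outside the 12395 tested. These matches describe letters only.

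Choline kinases, which start the CDP-choline route by phosphorylating choline, differed from each other in how they varied. Chka had 43.05, 35.42, 40.40, 37.04 and 13.61 FPKM in KO livers 1 to 5, against 69.83, 81.48, 31.50, 25.64 and 22.18 FPKM in WT livers 1 to 5. WT livers 1 and 2 lay above every KO liver, KO liver 5 lay below every WT liver, and the rest overlapped. The log2 fold change was -0.34 with a wide interval (95% CI -1.36 to 0.69, limma adjusted p = 0.811), so a change of the WT level to 0.389 or to 1.61 times lies within it. Without KO liver 5 the log2 fold change was -0.04, without WT liver 1 it was -0.14 and without WT liver 2 it was -0.08. The highest library had 5.99 times the lowest, and among the 10327 genes with at least 1 FPKM in every library 99.6% had a smaller such ratio, with a median of 1.47. Chka lies on the plus strand of chromosome 19 at 3851773 to 3894369.

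Chkb, the second choline kinase, was steadier. It had 48.92, 55.71, 53.19, 53.95 and 48.32 FPKM in KO livers 1 to 5, against 69.33, 62.23, 65.67, 56.04 and 54.09 FPKM in WT livers 1 to 5. Of the KO livers, 4 lay below every WT liver, and KO liver 2 overlapped WT liver 5. Chkb averaged 52.0 ± 3.24 FPKM in KO and 61.5 ± 6.40 FPKM in WT (SD, n = 5 each), a log2 fold change of -0.23 (95% CI -0.40 to -0.07) at an unadjusted p of 0.00989 and a limma adjusted p of 0.246. It did not pass over all genes. Chkb (minus strand of chromosome 15, 89426360 to 89429908) shares 1552 exon bases, 50.7% of its exon length, with the annotated same-strand gene Gm44502, so reads of both loci cannot be told apart there.

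For the 2 genes that complete the CDP-choline route the groups overlapped. Pcyt1a, which makes CDP-choline and limits the rate of this route, had 17.98, 17.85, 18.20, 15.30 and 20.03 FPKM in KO livers 1 to 5, against 18.25, 16.17, 20.44, 20.52 and 20.53 FPKM in WT livers 1 to 5. WT livers 3, 4 and 5 lay above every KO liver, KO liver 4 lay below every WT liver, and the others overlapped (log2 fold change -0.10, 95% CI -0.29 to 0.09, limma adjusted p = 0.706). Chpt1, a cholinephosphotransferase that joins CDP-choline to diacylglycerol, had 74.44, 76.74, 69.31, 60.35 and 87.57 FPKM in KO livers 1 to 5, against 71.90, 84.62, 108.11, 81.68 and 85.32 FPKM in WT livers 1 to 5. The groups overlapped, KO livers 3 and 4 being below and WT liver 3 above all livers of the other genotype (log2 fold change -0.22, 95% CI -0.47 to 0.02, limma adjusted p = 0.455).

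Ratios of FPKM within a library do not depend on a scaling factor of that library. Pemt was 12.7 ± 1.18 times Pcyt1a in KO and 12.0 ± 0.892 times in WT (SD, n = 5 each). Chka was 0.649 ± 0.225 times Chkb in KO and 0.733 ± 0.404 times in WT, and its share of the summed choline kinase FPKM was 21.98% to 46.8% in KO and 29.1% to 56.7% in WT. Ptdss1 was 3.83 ± 0.308 times Ptdss2 in KO and 3.93 ± 0.793 times in WT. No ratio differed beyond the library spread in an exact two-sided permutation test over 252 regroupings (p = 0.349, 0.825 and 0.937 for the ratios in this order, all 0.937 after Benjamini-Hochberg adjustment over 3). The smallest p that this test can give is 0.00794.

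**Figure D2:**
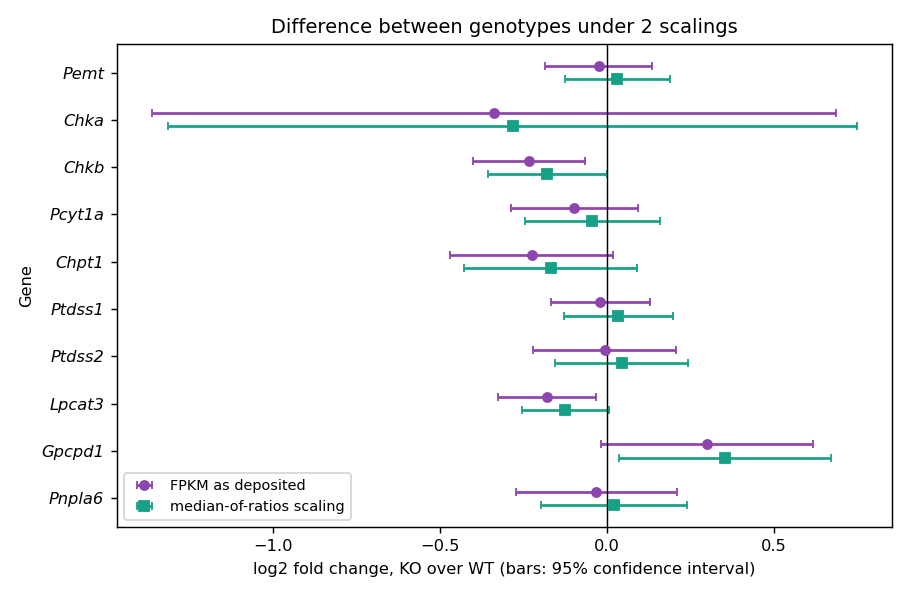
Log2 fold change of KO over WT for the 10 genes (points) with 95% confidence intervals (bars), with FPKM as deposited (circles) and after median-of-ratios scaling (squares). Chka has the widest interval, -1.36 to 0.69, and Pemt, Ptdss1, Ptdss2 and Pnpla6 change sides of 0 with the scaling.

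The phosphatidylserine synthase genes had differences near 0 with overlapping ranges. Ptdss1, which exchanges the choline of phosphatidylcholine for serine, had 16.30, 16.20, 17.83, 15.11 and 16.50 FPKM in KO livers 1 to 5, against 17.55, 14.86, 16.96, 16.34 and 17.49 FPKM in WT livers 1 to 5. KO liver 3 held the highest and WT liver 2 the lowest value, and the rest overlapped. Ptdss2, which uses phosphatidylethanolamine, had 4.23, 4.6, 4.11, 4.03 and 4.47 FPKM in KO livers 1 to 5, against 3.56, 5.30, 4.20, 4.55 and 4.09 FPKM in WT livers 1 to 5. The 5 KO values of Ptdss2 all lay inside the WT range. The log2 fold changes were -0.02 for Ptdss1 (95% CI -0.17 to 0.13) and -0.01 for Ptdss2 (95% CI -0.22 to 0.21), with limma adjusted p of 0.934 and 0.986. Among genes with at least 1 FPKM in every library, 5.22% had a smaller ratio of highest to lowest library than Ptdss1, at 1.1999. Ptdss1 shares 229 exon bases with Mterf3 on the opposite strand, which was at 13.6 ± 1.36 FPKM in KO and 14.9 ± 2.24 FPKM in WT (SD, n = 5 each).

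Lpcat3, an acyltransferase that places polyunsaturated chains into lysophosphatidylcholine, had 44.05, 49.90, 46.80, 50.77 and 55.11 FPKM in KO livers 1 to 5, against 54.75, 55.25, 54.60, 60.77 and 53.93 FPKM in WT livers 1 to 5. Of the KO livers, 4 lay below every WT liver, and KO liver 5 lay among the WT livers. The log2 fold change was -0.18 (95% CI -0.33 to -0.03) at an unadjusted p of 0.0201 and a limma adjusted p of 0.309, so it did not pass over all genes. Lpcat3 (plus strand of chromosome 6, 124663027 to 124704418) shares 334 exon bases with Emg1 on the opposite strand, which was at 31.2 ± 2.44 FPKM in KO and 32.8 ± 1.93 FPKM in WT (SD, n = 5 each). The library kit was directional, but the labels do not say whether strand was used in counting.

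For the 2 genes of phosphatidylcholine breakdown the groups overlapped. Gpcpd1, which splits glycerophosphocholine and returns choline, was the only gene of the 10 with a higher mean in KO, with 15.97, 18.90, 22.21, 25.03 and 14.04 FPKM in KO livers 1 to 5, against 14.61, 15.58, 17.09, 16.91 and 12.35 FPKM in WT livers 1 to 5. KO livers 2, 3 and 4 lay above every WT liver and the other 2 overlapped (log2 fold change 0.30, 95% CI -0.02 to 0.62, limma adjusted p = 0.445). Its interval and that of Chka were the widest of the 10. Pnpla6, a phospholipase that removes both chains from phosphatidylcholine, had 7.90, 11.47, 8.32, 9.48 and 11.78 FPKM in KO livers 1 to 5, against 10.49, 9.72, 8.98, 9.58 and 10.84 FPKM in WT livers 1 to 5. KO livers spread to both sides of the WT range (log2 fold change -0.03, 95% CI -0.27 to 0.21, limma adjusted p = 0.937).

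On GRCm38, Pcyt1a lies on chromosome 16 at 32430921 to 32475070 (plus strand), Chpt1 on chromosome 10 at 88452745 to 88504073 (minus), Ptdss1 on chromosome 13 at 66932830 to 66998401 (plus) and Ptdss2 on chromosome 7 at 141122382 to 141157606 (plus). Gpcpd1 lies on chromosome 2 at 132529082 to 132587729 (minus) and Pnpla6 on chromosome 8 at 3515384 to 3544267 (plus). Exons of Pcyt1a share 567 bases with Slc51a, those of Chpt1 660 bases with Sycp3, those of Chka 74 bases with Gm16066 and those of Chkb 320 bases with C730034F03Rik, which was at 1.66 ± 0.292 FPKM in KO and 2.06 ± 0.485 FPKM in WT (SD, n = 5 each).

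Within a genotype the 10 genes did not vary as a block. Over the 45 pairs the correlation of deviations from the genotype mean across 10 libraries ran from -0.80 to 0.72, with 21 positive and 24 negative and a median of -0.01. Chka and Pcyt1a ran opposite (Pearson r = -0.80, Spearman rho -0.87, r = -0.71 without the 2 libraries farthest out in Chka), as did Chka and Pemt (r = -0.79, rho -0.79, and -0.89 without the 2 libraries farthest out in Pemt). KO liver 5 had the lowest Chka and the highest Pemt of all, with the highest Pcyt1a among KO livers. Pemt and Pnpla6 were the pair with the highest correlation (r = 0.72, rho 0.60, and 0.40 without the 2 libraries farthest out in Pemt). Pcyt1a and Ptdss1 came next at 0.67, which was -0.25 without the 2 libraries farthest out in Pcyt1a and so rested on KO liver 4 and WT liver 2. These are descriptions of 10 libraries whose values share each library's scaling.

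**Figure D3:**
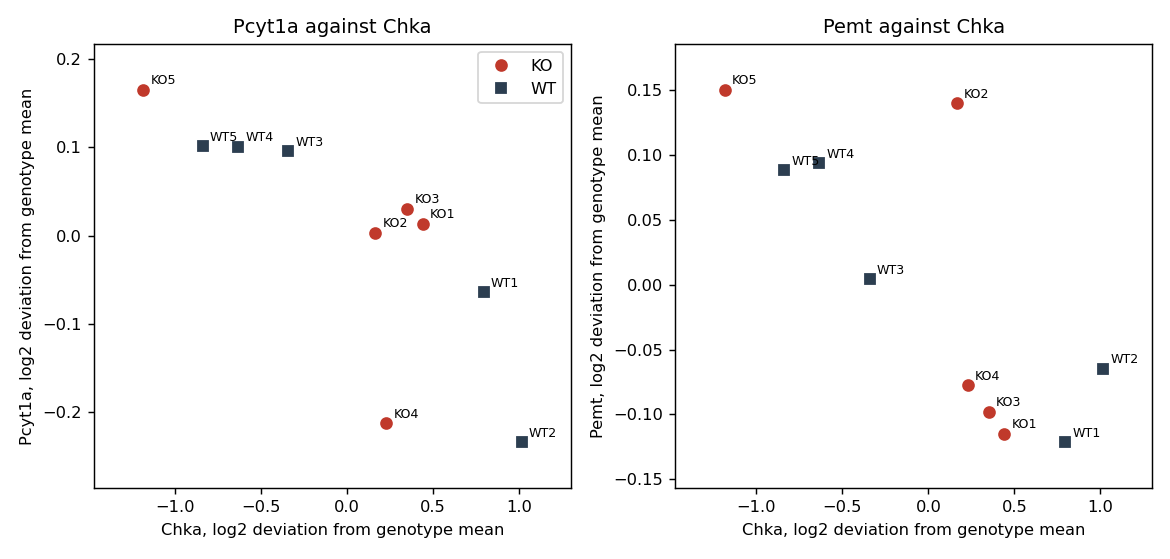
Deviation from the genotype mean on the log2 scale in each of the 10 libraries, Pcyt1a against Chka on the left and Pemt against Chka on the right, KO as circles and WT as squares. Libraries with more Chka had less Pcyt1a (r = -0.80) and less Pemt (r = -0.79), with KO liver 5 at the low end of Chka.

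Among all other genes tested, those with a pattern most like Pemt within genotype were Sdhaf1 (r = 0.97, rho 0.98), Mospd3 (r = 0.97, rho 0.85) and Scrn2 (r = 0.96, rho 0.85), over 10 libraries. For Pcyt1a they were Galm (r = 0.96, rho 0.92), Cyp4a10 (r = 0.96, rho 0.87) and Otud3 (r = 0.95, rho 0.88). For Lpcat3 they were Dnaaf2 (r = 0.96, rho 0.88), Zfp772 (r = 0.94, rho 0.92) and Nit1 (r = 0.94, rho 0.85). Without the 2 libraries farthest out in the gene of interest, r stayed between 0.94 and 0.98 for the first set, 0.81 and 0.90 for the second and 0.88 and 0.94 for the third. They are the highest of about 12395 comparisons each and are given as descriptions.

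The neighbouring pathway was covered by 7 lists with 76 genes, of which 69 were tested. None passed the adjusted threshold, and 13 had an unadjusted p under 0.05. That is 18.8%, beside 11.8% of all genes tested. The median log2 fold change of the 69 was -0.05, equal to that of all genes tested at 2 decimals.

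The ethanolamine branch holds 8 genes, 3 with higher and 5 with lower means in KO (4 and 4 with median-of-ratios or quantile scaling). Etnk1, an ethanolamine kinase, had 8.60, 8.03, 10.16, 8.70 and 9.65 FPKM in KO livers 1 to 5, against 13.47, 11.57, 11.35, 11.04 and 12.89 FPKM in WT livers 1 to 5, without overlap (log2 fold change -0.40, limma adjusted p = 0.118). Etnk2, the other ethanolamine kinase, was at 198 ± 40.6 FPKM in KO and 152 ± 25.7 FPKM in WT, and Phospho1, a phosphatase of phosphoethanolamine and phosphocholine, at 16.4 ± 3.54 FPKM in KO and 23.3 ± 7.22 FPKM in WT (SD, n = 5 each). Both pairs of ranges overlapped.

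The enzymes of choline oxidation and methyl supply turn choline into betaine and pass its methyl groups towards S-adenosylmethionine, which Pemt uses. Of 12 genes tested, 10 had higher and 2 lower mean log2 values in KO (11 and 1 under the other 4 scalings), with a median log2 fold change of 0.16. At an unadjusted p under 0.05 there were 5 higher and 0 lower, beside 2.69% of all genes higher as deposited, and none passed the adjusted threshold. With median-of-ratios scaling there were also 5 higher and 0 lower, beside 669 of 12380 genes higher. With quantile normalization the same 5 and 0 stood beside 645 of 12395 genes higher. Dmgdh, the dimethylglycine dehydrogenase, had 278.35, 262.76, 263.74, 248.48 and 241.76 FPKM in KO livers 1 to 5, against 174.12, 218.64, 232.38, 219.48 and 200.65 FPKM in WT livers 1 to 5, without overlap (log2 fold change 0.31, limma adjusted p = 0.155). Bhmt, which methylates homocysteine with betaine, was at 5026 ± 547 FPKM in KO and 3472 ± 934 FPKM in WT, and its relative Bhmt2 at 137 ± 5.72 FPKM in KO and 117 ± 12.4 FPKM in WT (SD, n = 5 each). Gnmt and Ahcy were the other 2 at an unadjusted p under 0.05, with log2 fold changes of 0.32 and 0.27. Of 9 hepatocyte markers 8 lay on the same side, as given above, and the part of these markers in these values was not tested.

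In the other lists fewer genes stood out. The counts of lower genes below stand beside 65.1% of all genes tested with a lower mean log2 value in KO as deposited. Among 7 other lysophospholipid acyltransferases, 5 had lower mean log2 values in KO. Lpgat1 was at 36.8 ± 1.92 FPKM in KO and 44.8 ± 4.58 FPKM in WT (SD, n = 5 each, log2 fold change -0.28, limma adjusted p = 0.184), with Lclat1 at -0.16 and Lpcat1 at -0.29 on the log2 scale. Among 15 phospholipases and lysophospholipid enzymes, 11 had lower means in KO. Of these the calcium-independent phospholipase gene Pnpla8 had 43.87, 36.91, 45.22, 42.45 and 43.53 FPKM in KO livers 1 to 5, against 52.21, 47.00, 54.09, 54.53 and 51.95 FPKM in WT livers 1 to 5, without overlap (log2 fold change -0.29, limma adjusted p = 0.140). Lypla1 and Pla2g12a followed at log2 fold changes of -0.15 and -0.22. Among 12 transfer and export genes, 9 had lower means in KO (6 with median-of-ratios scaling), with the phosphatidylcholine transfer protein gene Pctp at 62.0 ± 6.73 FPKM in KO and 69.9 ± 4.89 FPKM in WT, and Osbpl8 and Tmem30a at -0.18 and -0.10 on the log2 scale.

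Choline uptake and the remaining CDP-choline genes gave 0 of 6 at an unadjusted p under 0.05, Slc44a1 and Flvcr1 having log2 fold changes of -0.14 and -0.16. Their direction rests on the scaling, with 5 lower in KO as deposited and 2 lower with median-of-ratios scaling. Pcyt1b, whose enzyme catalyses the same step as that of Pcyt1a, was at 0.05 to 0.11 FPKM in KO and 0.02 to 0.14 FPKM in WT, below the filter on low values. Among 9 regulators 5 had higher means in KO, and Srebf2, the transcription factor of sterol synthesis, was at 13.96 ± 1.37 FPKM in KO and 10.1 ± 1.10 FPKM in WT without overlap (SD, n = 5 each, log2 fold change 0.45, limma adjusted p = 0.104). The nuclear receptor genes Nr1h4 and Esr1 had log2 fold changes of -0.24 and -0.15.

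**Figure D4:**
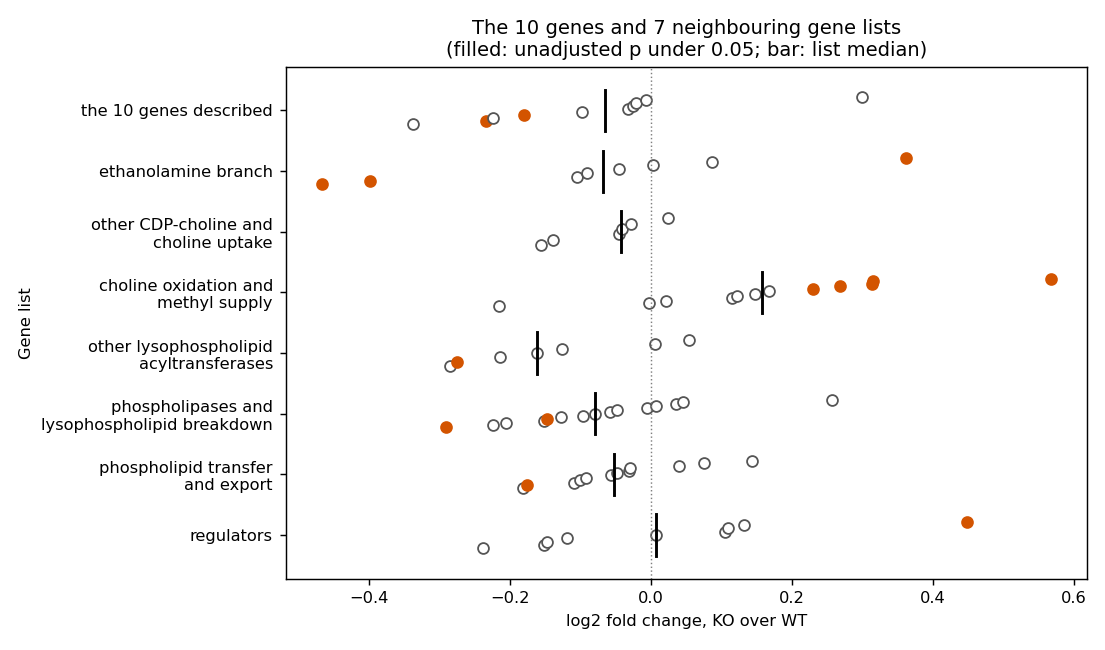
Log2 fold change of KO over WT for each tested gene of the 10 described and of 7 neighbouring lists, with filled points at an unadjusted p under 0.05 and a bar at each list's median. Choline oxidation and methyl supply has its median at 0.16 and 5 filled points, all above 0, and the 10 genes have their median at -0.07 with 2 filled points.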

How the data were processed

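The deposited table holds FPKM per gene for 10 liver libraries, which the authors rounded to 2 decimals, and 2 empty columns that were not used. The submitters' processing notes name build mm10 and the tools DESeq, DESeq2, RSEM, STAR and R 4.0.2, without their roles, the annotation or the strand setting. Depth was estimated from genes with 1 annotated transcript of 350 to 1000 bases, by finding the fragment number and length at which low values became whole fragments (94.9% to 97.4% within 0.1).

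The test of KO against WT used limma 3.58.1 in R 4.3.3 on log2(FPKM + 0.5), for the 12395 genes whose mean reached 0.5 FPKM, with a robust, trended prior. It was two-sided, with Benjamini-Hochberg adjustment across these genes at 0.05. The added 0.5 makes fold changes of low genes too small. KO against WT was simulated in 5 runs with 12395 genes, independent normal noise and 200 changed genes per run. The test found 10.0% of genes changed 1.2-fold, 64.8% of those changed 1.5-fold and 94.0% of those changed 2-fold. False calls were 3.88% of all calls. The 5 runs together gave 696 calls, each run being a whole simulated data set, and the data as 1 set gave 8. Even counted per run the simulations gave more calls, so the adjusted threshold was stricter in the data. Recovery in the data may therefore be lower than in the simulations. The genes named in neighbouring lists are the 3 of lowest p in each, of which 1 is not reported here, and Gnmt, Ahcy and Pcyt1b, which were added after their values were seen; those most like a member have the highest within-genotype Pearson r, passing over clone and model names. Genes whose exons overlap a member were also named. The members, the lists and the ratios were chosen with earlier results of these data known. Of 76 neighbouring genes 74 matched by symbol and 2 by gene ID. Alternatives were other pseudocounts, filters, scalings, priors, array weights, a replicate block and each library left out. Coordinates are from GENCODE M21 (GRCm38, the assembly behind mm10), promoter windows from RefSeq (GRCm38.p6). Python 3.11.15 and matplotlib 3.10.9 drew the plots.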

Additional observations from a re-analysis of the deposited data

Results flagged for a closer look

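In 26 groups of 5 libraries, each of the 10 genes and the 3 ratios in each genotype, 2 libraries lay far from the rest of their group, where chance gives about 1 group in 20. Chka was at 13.61 FPKM in KO liver 5, a gap to the next KO liver of 0.741 of the KO range, and without this library the log2 fold change of Chka was -0.04 in place of -0.34. Lpcat3 was at 60.77 FPKM in WT liver 4, a gap of 0.807 of the WT range, and without this library its log2 fold change was -0.15 at an unadjusted p of 0.0563.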

How the results depend on the processing

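Under 22 alternatives none of the 10 genes passed the adjusted threshold in limma, and Etnppl passed in each. In limma, Chkb kept an unadjusted p under 0.05 in all 22. Lpcat3 did so in 19, the exceptions being median-of-ratios scaling and the fits without KO liver 1 or WT liver 4. Gpcpd1, higher in KO, had an unadjusted p under 0.05 in 6 of the 22, and Chpt1, lower in KO, in 2. The count at an unadjusted p under 0.05 was 1 to 4 over the fits leaving out 1 library, with 4 without KO liver 5 and 1 without WT liver 4. Of all genes tested, 10.2% to 12.4% passed the same threshold in those fits. With quantile normalization, array weights or the replicate block the count was 3, also without WT liver 1. In the fits leaving out 1 library, the count of genes with separate ranges was 0 to 1. The gene was Chkb without KO liver 2 or WT liver 5 and Lpcat3 without KO liver 5. Among all genes tested, 487 of 12393, 465 of 12406 and 610 of 12385 had separate ranges in these 3 fits. With all libraries it was 346 of 12395. Of all genes at an unadjusted p under 0.05, 334 were higher and 1124 lower in KO as deposited, against 669 and 599 with median-of-ratios scaling.

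Small differences changed sign. With median-of-ratios scaling the log2 fold changes were 0.0310 for Pemt, 0.0338 for Ptdss1, 0.0436 for Ptdss2 and 0.0206 for Pnpla6. With quantile normalization they were 0.0243 for Ptdss1, 0.0392 for Ptdss2 and 0.0162 for Pnpla6. Ptdss2 was at 0.00282 rescaled to TPM, 0.00780 without the top 50 genes and 0.00910 with array weights. Over the fits leaving out 1 library, Pemt ran from -0.0628 to 0.00362, Ptdss1 from -0.0597 to 0.00715, Ptdss2 from -0.0679 to 0.0607 and Pnpla6 from -0.10 to 0.0362. The log2 ratio differences ran from -0.27 to 0.17 for Chka to Chkb and from -0.12 to 0.0664 for Ptdss1 to Ptdss2. That of Pemt to Pcyt1a kept its sign, at 0.0391 to 0.116. The cause was not tested.

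Same-numbered libraries of the 2 genotypes had correlations of -0.02 to 0.20, and differently numbered ones of -0.22 to 0.16. The labels do not say whether equal numbers form pairs, and these values cannot decide it. With the replicate block Gpcpd1 had a log2 fold change of 0.30 at an unadjusted p of 0.00482 and an adjusted p of 0.212. For the ratio of Pemt to Pcyt1a an exact test swapped genotypes within same-numbered libraries, in 32 arrangements. Its p was 0.0625, and 0.1875 after adjustment over the 3 ratios. At the longest annotated transcript Ptdss2 had at least about 299 fragments per library, a counting error of up to 5.78%, against up to 1.70% for Pemt. The lengths used by the authors are not known, so these are approximate.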

Other observations

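The genes with a pattern most like Chka within genotype, a gene chosen for this after its values were seen, were Nlrp12 (r = 0.97, rho 0.96), Slfn1 (r = 0.93, rho 0.91) and Fgfr1op2 (r = 0.93, rho 0.95) over 10 libraries. Without the 2 libraries farthest out in Chka, r was 0.93, 0.90 and 0.90. Nlrp12, which encodes an inflammasome-family receptor, had 9.66, 8.20, 9.09, 10.62 and 5.11 FPKM in KO livers 1 to 5, against 11.05, 11.13, 7.54, 6.47 and 6.12 FPKM in WT livers 1 to 5. As for Chka, KO liver 5 had the lowest value of all and WT livers 1 and 2 the highest. These are descriptions chosen from 12395 genes tested.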
